A study of Sus scrofa with 11 samples.

Results

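The genes described here are genes of white blood cells, measured in whole pig back muscle. They are 10 rows of a table of 25322 pig genes, chosen by the symbol that their Ensembl ID carries: C1QA, CD68, LYZ, CSF1R, TYROBP, FCER1G and CD14 as genes of macrophages and related myeloid cells, PTPRC and LAPTM5 as genes of leukocytes in general, and CD4. Each symbol matched 1 ID, and all 10 IDs passed the filter on low counts that left 11329 genes to test. RNA came from the longissimus lumborum of 11 female pigs aged 23 weeks, each sequenced as its own sample, with total counts of 14832736 to 36374829 per pig. In the 7 pigs of the group fibre1, type I fibres (slow, oxidative) exceeded 17% and type IIB fibres (fast, glycolytic) stayed below 70% of the fibres in the histology of that muscle. In the 4 pigs of the group fibre2B, type I fibres stayed below 8% and type IIB fibres exceeded 70%. The groups were therefore set by histology and not by a treatment. The muscle itself was plainly present in every pig, with the summed level of 5 tested fibre genes at 79170 to 165700 CPM (counts scaled to a common library size with TMM factors) in fibre1 and 57580 to 90420 CPM in fibre2B.

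Skeletal muscle holds resident macrophages in the connective tissue around its fibres, where they take up debris, secrete complement C1q and support repair. Their survival depends on the receptor CSF1R, and many of their surface receptors have no signalling tail of their own and work through the adaptor proteins TYROBP (also called DAP12) and FCER1G (the Fc receptor gamma chain). Monocytes that leave the blood bring further CD14-bearing cells, and lymphocytes patrol muscle in small numbers.

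None of the 10 genes passed the test between the histological groups. By edgeR's quasi-likelihood test 0 of 10 passed a Benjamini-Hochberg adjusted p of 0.05, where 9.01% of all tested genes did (4.38% higher in fibre1 and 4.63% lower in fibre1), and DESeq2 and limma-voom also called 0. At an unadjusted p of 0.05 the count was 1 of 10 with edgeR (CD68), against 28.9% of all tested genes, 2 with DESeq2 and 0 with limma-voom. The groups overlapped in all 10 genes, while 3.4% of tested genes were without overlap and higher in fibre1 and 4.15% without overlap and lower in fibre1. The log2 fold changes (fibre1 minus fibre2B) were negative for 7 of the 10 and positive for CSF1R, CD4 and CD14, with a median of -0.45, and 49.3% of all tested genes were negative, with a median of 0.0073. The split was also 7 and 3 with DESeq2's size factors and 8 and 2 with upper-quartile factors, where CD14 turned negative. Over the whole table, 1021 genes passed with all pigs, 28 without fibre1 pigs 5 and 6, and 0 without fibre2B pig 14 (2436 at an unadjusted p of 0.05, by edgeR), so every call of a single gene below was lost in the last of these. In whole tissue, fewer cells of a type and less RNA per cell cannot be told apart, and neither can leukocytes between the fibres and those in blood.

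The levels differed widely between single pigs, within the groups as well as between them. Fibre2B pig 14 had the highest level of all 11 pigs in 5 of the 10 genes and fibre1 pig 12 in 3, and fibre1 pig 12 was among the highest pair of pigs in 8. At the other end fibre1 pig 6 had the lowest level in 7 genes, and fibre1 pigs 5 and 6 were each among the lowest pair in 8. The summed level of the 10 genes ran from 20.4 CPM in fibre1 pig 6 through 40.9 CPM in fibre1 pig 7 to 72.5 CPM in fibre1 pig 12, and was 57.9, 48.0, 107 and 38.7 CPM in fibre2B pigs 10, 11, 14 and 16. The fibre1 pigs thus spanned most of the range. Pigs 5 and 6 also stood apart as libraries: their 10 most abundant nuclear genes took 45.2% and 44.1% of all counts, against 30.0% to 36.8% in the other 5 fibre1 pigs and 31.9% to 36.1% in the fibre2B pigs, and their TMM factors were 0.718 and 0.779. The part of that skew in the low values was not tested beyond the fits given here. Of the 11 pigs, fibre2B pig 14 had the fewest total counts (14832736) and fibre1 pig 12 the most (36374829). The median log2 fold change of the 10 genes was -0.17 without pigs 5 and 6, -0.21 with the count share of the top 10 genes as a covariate, -0.13 without fibre2B pig 14 and -0.78 without fibre1 pig 12.

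**Figure D1:**
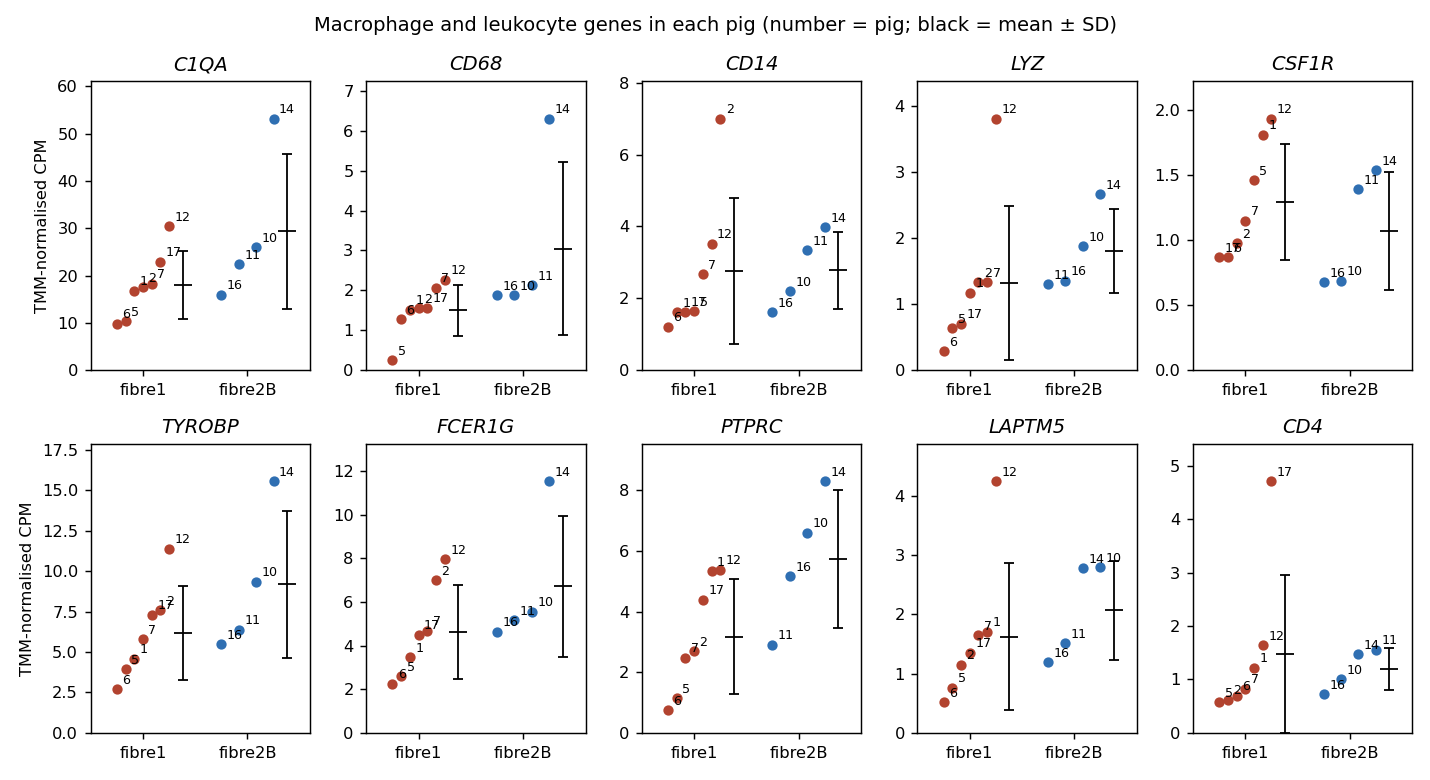
TMM-normalised CPM (y axis, linear, from 0) of each of the 10 genes in the 7 fibre1 pigs (left) and 4 fibre2B pigs (right); points are pigs with their number, black bars the mean ± SD. Fibre2B pig 14 is the highest pig in 5 panels and fibre1 pig 12 in 3, and the groups overlap in every panel.

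Among the macrophage products, C1QA encodes a chain of C1q, which starts the classical complement pathway and which macrophages secrete. It was the most deeply counted of the 10 genes, with 5396 counts over the 11 pigs. Its level ran from 9.82 through a median of 17.5 to 30.4 CPM in fibre1 and was 25.9, 22.4, 53.1 and 15.9 CPM in fibre2B pigs 10, 11, 14 and 16. Fibre1 pigs 5 and 6 lay below every fibre2B pig and the other 5 fibre1 pigs lay within the fibre2B range. The fibre1 mean was 17.99 ± 7.12 CPM (SD, n = 7) and the fibre2B mean 29.4 ± 16.4 CPM (SD, n = 4). The log2 fold change was -0.70 with an SE of 0.33 (edgeR adjusted p = 0.183; 95% interval -1.42 to 0.015), and every such ± below is the SE. Without fibre2B pig 14 it was -0.24.

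CD68, a glycoprotein of lysosomes that is abundant in macrophages, ran from 0.254 through 1.55 to 2.26 CPM in fibre1 and was 1.88, 2.12, 6.30 and 1.88 CPM in fibre2B pigs 10, 11, 14 and 16. In 5 of the 7 fibre1 pigs it was below the lowest fibre2B pig, and fibre2B pig 14 was far above the other 3 fibre2B pigs. The log2 fold change was -0.99 ± 0.44 (edgeR adjusted p = 0.157; 95% interval -1.94 to -0.045), and -0.36 without fibre2B pig 14. The lowest value, in fibre1 pig 5, rested on 4 counts, for which the exact 95% Poisson interval is 1.09 to 10.24 counts (intervals of this kind cover counting error only).

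LYZ encodes lysozyme, the enzyme that cleaves bacterial cell walls and that macrophages and granulocytes make. It ran from 0.289 through 1.17 to 3.81 CPM in fibre1 and was 1.88, 1.30, 2.67 and 1.35 CPM in fibre2B pigs 10, 11, 14 and 16. The highest and the lowest of all 11 pigs were both fibre1 pigs, 12 and 6. Its log2 fold change was -0.39 ± 0.51 (edgeR adjusted p = 0.645; 95% interval -1.49 to 0.71). It was -0.96 without fibre1 pig 12, -0.14 without fibre2B pig 14, and -0.068 when fibre1 pigs 5 and 6 were left out.

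Of the receptors, CSF1R binds the growth factors CSF1 and IL34 and is needed by most tissue macrophages. Its level was 0.866 to 1.93 CPM in fibre1 with a median of 1.148, and 0.688, 1.39, 1.53 and 0.677 CPM in fibre2B pigs 10, 11, 14 and 16. Fibre1 pigs 12 and 1 were above every fibre2B pig, and none lay below the lowest. The range over the 11 pigs was 2.85-fold, the narrowest of the 10 genes. The log2 fold change was 0.28 ± 0.34 (edgeR adjusted p = 0.609; 95% interval -0.45 to 1.02) and stayed positive in all 20 alternatives (0.12 to 0.51).

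TYROBP and FCER1G encode the adaptors that carry the signals of Fc receptors and many other activating receptors through a tyrosine motif. TYROBP ran from 2.72 through 5.79 to 11.4 CPM in fibre1 and was 9.36, 6.37, 15.6 and 5.47 CPM in fibre2B pigs 10, 11, 14 and 16. FCER1G ran from 2.25 through 4.49 to 7.95 CPM in fibre1 and was 5.55, 5.16, 11.5 and 4.64 CPM in the same fibre2B pigs. The adaptors shared their highest pig (fibre2B pig 14), their next highest (fibre1 pig 12) and their lowest (fibre1 pig 6). Their log2 fold changes were -0.56 ± 0.35 (edgeR adjusted p = 0.315) and -0.52 ± 0.35 (adjusted p = 0.342), with 95% intervals of -1.32 to 0.20 and -1.26 to 0.23. Without fibre2B pig 14 they were -0.17 and -0.12.

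CD14, the co-receptor that hands bacterial lipopolysaccharide to Toll-like receptor 4, broke from this pattern through 1 pig. It ran from 1.21 through 1.65 to 6.999 CPM in fibre1 and was 2.20, 3.34, 3.97 and 1.62 CPM in fibre2B pigs 10, 11, 14 and 16. The highest value belonged to fibre1 pig 2, which had 6.999 CPM of FCER1G, the third highest level, but 1.55 CPM of CD68, the fibre1 median. Fibre1 averaged 2.76 ± 2.03 CPM and fibre2B 2.78 ± 1.07 CPM, a log2 fold change of 0.0026 ± 0.44 (edgeR adjusted p = 0.997; 95% interval -0.94 to 0.94). The interval allows nearly 1 log2 unit either way, and without fibre1 pig 2 the value was -0.42.

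Of the genes shared by all leukocytes, PTPRC encodes CD45, the phosphatase on the surface of every nucleated blood cell. It ran from 0.751 through 2.70 to 5.38 CPM in fibre1 and was 6.60, 2.90, 8.29 and 5.16 CPM in fibre2B pigs 10, 11, 14 and 16. In 4 fibre1 pigs it was below the lowest fibre2B pig. The fibre1 mean was 3.17 ± 1.90 CPM (SD, n = 7) and the fibre2B mean 5.74 ± 2.28 CPM (SD, n = 4). The log2 fold change was -0.84 ± 0.44 (edgeR adjusted p = 0.230; 95% interval -1.79 to 0.12). Without fibre2B pig 14 it was -0.60, then the most negative of the 10 values, and it was -0.49 without fibre1 pigs 5 and 6.

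LAPTM5, a lysosomal membrane protein of blood cells that lowers antigen receptor levels, ran from 0.520 through 1.35 to 4.25 CPM in fibre1 and was 2.80, 1.52, 2.78 and 1.20 CPM in fibre2B pigs 10, 11, 14 and 16. As for LYZ, fibre1 held the highest pig (12) and the lowest (6). Its log2 fold change was -0.31 ± 0.47 (edgeR adjusted p = 0.693; 95% interval -1.31 to 0.70). It was -0.78 without fibre1 pig 12, -0.13 without fibre2B pig 14, and -0.0060 when fibre1 pigs 5 and 6 were left out.

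CD4, the co-receptor of helper T cells, which human monocytes also carry, ran from 0.570 through 0.827 to 4.71 CPM in fibre1 and was 1.01, 1.56, 1.48 and 0.729 CPM in fibre2B pigs 10, 11, 14 and 16. The value of 4.71 CPM in fibre1 pig 17 rested on 87 counts (exact 95% Poisson interval 69.7 to 107) and the next highest fibre1 pig had 1.65 CPM. The log2 fold change was 0.30 ± 0.55 (edgeR adjusted p = 0.750; 95% interval -0.89 to 1.48), and -0.33 without fibre1 pig 17. Other T cell genes were mixed in that pig. CD2 (3.30 CPM) was at its highest fibre1 level there and CD8B (0.974 CPM) at its highest of all 11 pigs. CD5 (1.30 CPM) was at its next highest of all pigs, after fibre1 pig 12. CD3D, a chain of the T cell receptor complex, had 0.595 CPM, against 1.21 CPM in fibre1 pig 12.

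**Figure D2:**
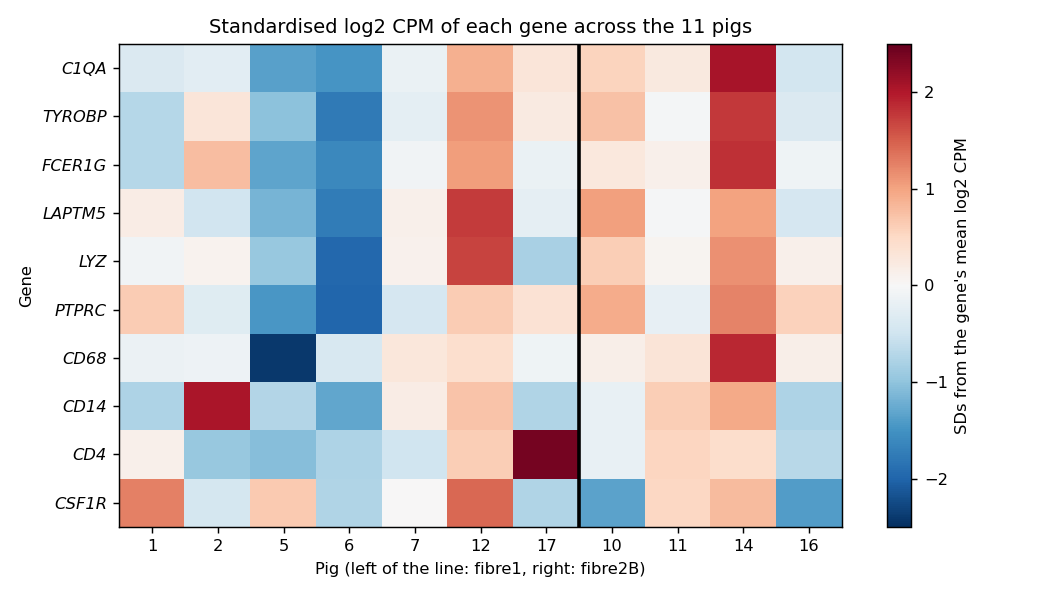
Log2 CPM of each gene (rows) in each pig (columns; fibre1 left of the line, fibre2B right of it), as SDs from that gene's mean over the 11 pigs. Fibre1 pigs 5 and 6 are low in most rows and fibre1 pig 12 and fibre2B pig 14 high, while fibre1 pig 2 stands out in CD14 and fibre1 pig 17 in CD4.

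The spread between pigs, group difference included, was set beside counting error. The coefficient of variation of CPM over the 11 pigs was 36.2% for CSF1R, 49.1% for FCER1G, 54.2% for C1QA, 73.2% for CD68 and 85.7% for CD4, where counting alone would give 20.1%, 9.52%, 4.70%, 15.4% and 18.9%. The biological coefficient of variation that edgeR fitted was 34.9% for CSF1R, 38.3% for C1QA and 58.6% for CD4, and the median over all tested genes was 25.4%.

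The genes varied together to different degrees. Over the 11 pigs the Pearson correlation of log2 CPM was 0.96 between TYROBP and FCER1G, 0.95 between C1QA and TYROBP, 0.93 between LYZ and LAPTM5 and 0.83 between PTPRC and LAPTM5. CSF1R correlated with the other 9 genes at 0.050 to 0.37, CD4 at -0.040 to 0.54 and CD14 at -0.040 to 0.79, its highest value being with FCER1G. These are descriptions over pigs that share the scaling of each library. They also hold pigs 5 and 6: without those, TYROBP and FCER1G had 0.93, C1QA and TYROBP 0.93, LYZ and LAPTM5 0.86, and PTPRC and FCER1G 0.36, against 0.75 with all pigs. Within the 7 fibre1 pigs the first 3 pairs had 0.96, 0.94 and 0.95. CSF1R there had 0.65 with LYZ, 0.65 with LAPTM5 and 0.46 with PTPRC, and -0.064 (CD4) to 0.30 (C1QA) with the other genes.

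**Figure D3:**
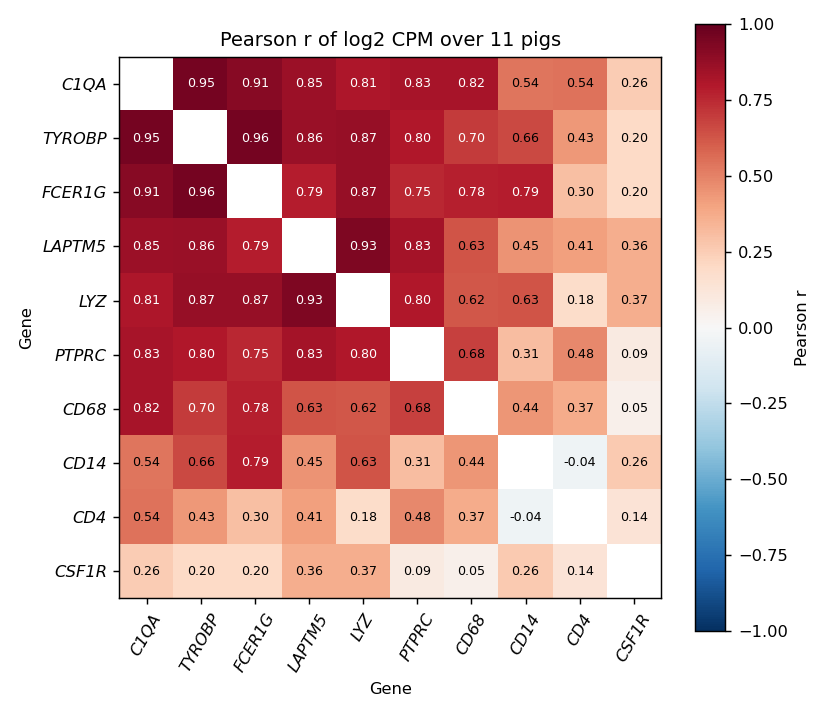
Pearson correlation of log2 CPM over the 11 pigs for each pair of the 10 genes, from -1 (blue) to 1 (red). TYROBP and FCER1G reach 0.96, while the CSF1R column stays between 0.050 and 0.37.

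Among the 7767 tested genes with a symbol, those whose log2 CPM followed the mean standardised level of the 10 genes most closely were CMTM7 (r = 0.96), GIMAP6, a GTPase of the immunity-associated family (0.95), CD53, a tetraspanin of leukocytes (0.94), the kynureninase gene KYNU (0.94) and EVI2A (0.94). They were the highest of many, so their size is partly a matter of selection. With the pair of pigs farthest from the median left out the 5 values were 0.85 to 0.91. For single genes the closest was CD53 for TYROBP (0.97), CMTM7 for FCER1G (0.97), FYB1, an adaptor of T cells and myeloid cells, for LYZ (0.98), SLC49A3 for LAPTM5 (0.96), ADSS2 for CD68 (0.96), TYROBP for C1QA (0.95), the MHC class II gene SLA-DMA for PTPRC (0.94) and NEK6 for CD14 (0.93). For CD4 (LTN1, 0.83) and CSF1R (AMIGO3, 0.82) the closest gene was less close over the 11 pigs. These values were also taken without the pair of pigs farthest from the median of each of the 10 genes. LTN1 then had 0.67, ADSS2 0.74 and AMIGO3 0.79, and the others had 0.81 (SLA-DMA) to 0.95 (FYB1).

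Other myeloid genes were read from a list of 45, of which 24 had an ID and 16 were tested. SIGLEC1, the sialic acid receptor sialoadhesin of macrophages, fell to 0.676 ± 0.226 CPM in fibre1, against 1.55 ± 0.697 CPM in fibre2B (log2 fold change -1.17 ± 0.33, edgeR adjusted p = 0.044). It was the 1 gene called of 16, where 4.63% of all tested genes were called lower, and the other 15 did not pass. Of the 16, 12 had negative values, where 49.3% of all tested genes did. The list median was -0.77 (-0.33 without fibre2B pig 14, -0.50 without fibre1 pigs 5 and 6). The call of SIGLEC1 was lost on leaving out any 1 of fibre1 pigs 2, 5, 6 and 17 and fibre2B pigs 10, 14 and 16, and with no filter, limma-voom, the covariate, or without pigs 5 and 6 together (adjusted p from 0.054 to 0.185).

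Within this list the genes differed in how much they moved between pigs. The high-affinity IgG receptor gene FCGR1A had 0.127 to 0.551 CPM in fibre1, and 5.79 CPM in fibre2B pig 14 beside 0.0867 to 0.625 CPM in the other 3 fibre2B pigs. Its log2 fold change of -2.19 ± 0.79 (edgeR adjusted p = 0.092) was 0.10 without that pig. The scavenger receptor gene MSR1 had 3.86 CPM in pig 14 and at most 0.927 CPM in any other pig, and had -1.44 ± 0.55 (adjusted p = 0.104), and -0.27 without that pig. In contrast the lysosomal protease gene LGMN spanned 1.76-fold over the 11 pigs, the folate receptor gene FOLR2 2.08-fold, the scavenger receptor gene STAB1 2.32-fold and SPI1, the gene of the myeloid transcription factor PU.1, 2.36-fold. These 4 were named after their values were seen, and CSF1R spanned 2.85-fold. Their log2 fold changes were -0.041 (LGMN), 0.20 (FOLR2), 0.11 (STAB1) and 0.14 (SPI1), and their r with the mean of the 10 genes was 0.29, -0.16, 0.36 and 0.65. Total counts over the 11 pigs were 1115 (SPI1) to 8483 (LGMN) in these 4, against 183 for FCGR1A and 197 for MSR1. CTSS, also of the list and named after its values were seen, had 4841 counts and spanned 8.56-fold.

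**Figure D4:**
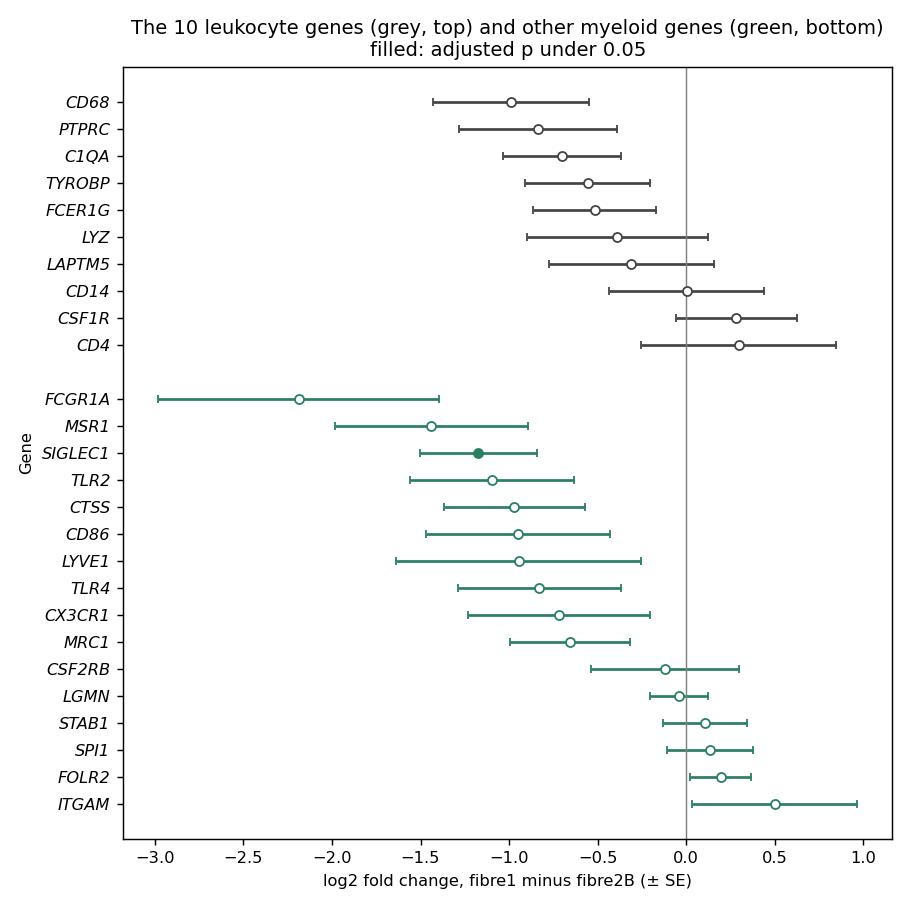
Log2 fold change, fibre1 minus fibre2B, ± SE (x axis) of the 10 genes (grey) and of the 16 tested genes of the myeloid list (green), each sorted; filled points passed an adjusted p of 0.05. SIGLEC1 is the 1 filled point, and CSF1R, CD4, ITGAM, FOLR2, STAB1 and SPI1 lie to the right of 0, with CD14 at 0.0026.

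The pathways around the receptors were counted from lists of their own. Over all tested genes 9.01% passed and 49.3% were negative. In the CSF1 receptor list 4 of 8 genes were tested, CSF1R among them, 0 passed and all 4 were positive (median 0.28): GRB2, an adaptor of growth factor receptors, had 0.27 ± 0.12 (edgeR adjusted p = 0.139) and PTPN6, a phosphatase of blood cells, 0.65 ± 0.29 (adjusted p = 0.156). PIK3R1 had 0.029. GRB2 and PIK3R1 did not follow the leukocyte genes, with r of -0.15 and 0.013 to the mean of the 10, and PTPN6 had 0.42. The ligands CSF1 and IL34 were not analysed here. The list of TYROBP and FCER1G partners had 6 tested genes. They include TYROBP and FCER1G themselves and FCGR1A of the myeloid list, all negative and already given above. Of the 6, 0 passed and 5 were negative (median -0.50). LAT2, an adaptor of myeloid and B cells, had -0.49 ± 0.29 (edgeR adjusted p = 0.281). The median was -0.059 and LAT2 had -0.059 (0.912) when fibre2B pig 14 was left out. In the list around CD14 and Toll-like receptor 4, 8 genes were tested, CD14 and TLR2 and TLR4 of the myeloid list among them. Of these 8, 1 passed, against 9.01% of all tested genes, and 5 were negative (median -0.36). That gene, IRAK1, a kinase downstream of the Toll-like receptors, rose to 29.5 ± 5.58 CPM in fibre1, against 12.8 ± 2.79 CPM in fibre2B, without overlap (log2 fold change 1.21 ± 0.19, adjusted p = 0.016), and lost its call without fibre2B pig 14 (0.057) but not without pigs 5 and 6. It did not follow the leukocyte genes, with r of -0.57 to their mean. LY96, the partner of Toll-like receptor 4, had -0.95 ± 0.40 (adjusted p = 0.137), and TLR2 had -1.10 ± 0.47 (adjusted p = 0.140). LY96 passed without fibre1 pig 12 (0.040), but without fibre2B pig 14 it had -0.49 (0.504) and TLR2 -0.43 (0.605).

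Of the complement genes, to which C1QA belongs, all 9 tested of 17 listed had negative log2 fold changes (median -0.70, and -0.48 without fibre2B pig 14), where 49.3% of all tested genes did. Of the 9, 3 passed, all lower in fibre1, where 4.63% of all tested genes were called lower. CFI, the factor I protease that cleaves C3b and C4b, fell to 1.57 ± 0.686 CPM in fibre1, against 4.81 ± 1.34 CPM in fibre2B (log2 fold change -1.59 ± 0.30, edgeR adjusted p = 0.016), without overlap. CFD, the factor D protease of the alternative pathway, which adipocytes also make, fell to 133 ± 23.8 CPM in fibre1, against 212 ± 48.4 CPM in fibre2B (-0.68 ± 0.17, adjusted p = 0.033). SERPING1, the C1 inhibitor, fell to 66.8 ± 12.7 CPM in fibre1, against 105 ± 24.8 CPM in fibre2B (-0.65 ± 0.17, adjusted p = 0.039). The CFI call was lost without fibre2B pig 14 (0.063) or without fibre1 pigs 5 and 6 (0.054). Those of CFD and SERPING1 were lost in 9 and 10 of 20 alternatives (highest adjusted p 0.126 and 0.145, both without pig 14), which for CFD included leaving out each of fibre1 pigs 1, 2, 5 and 6 and fibre2B pigs 11, 14 and 16, and for SERPING1 fibre1 pigs 1, 2, 5, 6 and 17 and fibre2B pigs 10, 11 and 14. CFI, CFD and SERPING1 had r of 0.67, 0.39 and 0.79 with the mean of the 10 genes, while C2 had 0.89.

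Other cell types were counted beside these genes. Of 8 tested fibroblast and matrix markers, 3 were called lower in fibre1, against 4.63% of all tested genes. In that list 7 were negative (median -0.73), against 49.3% of all tested genes. The summed level of the 8 was 494 to 1007 CPM in fibre1 and 777 to 1478 CPM in fibre2B. The mean of the 10 leukocyte genes had an r of 0.67 with DCN, the decorin gene of fibroblasts, over all pigs, 0.39 without fibre1 pig 6 and fibre2B pig 14, and 0.45 when fibre1 pigs 5 and 6 were left out. Of 3 tested red-cell markers 1 was called lower in fibre1 and all 3 were negative, beside the same shares over all tested genes. The summed level of the 3 was 137 to 468 CPM in fibre1 and 423 to 957 CPM in fibre2B. For HBB (a globin gene with near-identical copies, so its counts are uncertain) the r with the leukocyte mean was 0.0011 over all pigs, -0.71 within fibre1 and 0.28 without fibre1 pigs 5 and 6. Fibre2B pig 14 had the highest HBB level of the 11 pigs (948 CPM), and pigs 5 and 6 the highest in fibre1 (436 and 462 CPM). DCN and HBB were not the closest markers. Named after their values were seen, COL3A1 had 0.83 over all pigs and the fibre gene ACTA1, highest in pigs 5 and 6, -0.82. Of 10 granulocyte and mast cell genes with an ID 3 passed the filter, among them LTF with 110 counts over all 11 pigs. MPO and MMP8 had 0 counts in every pig, and ELANE had 33 and S100A8 56 counts in all. The part of these other cells in the values above was not tested.

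Leukocyte genes shared by all lineages gave 0 calls among 11 tested genes of 21 listed, beside PTPRC and LAPTM5, where 9.01% of all tested genes were called. Of these 11, 8 were negative (median -0.21, and 0.041 without fibre1 pigs 5 and 6), where 49.3% of all tested genes were. CD53 averaged 3.86 CPM (SD 1.803) in fibre1 and 7.72 CPM (SD 4.74) in fibre2B (log2 fold change -0.98 ± 0.40, edgeR adjusted p = 0.124). Its log2 fold change was -0.48 when fibre2B pig 14 was left out. PTPN6 was positive.

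The macrophage genes were set against lymphocyte genes pig by pig. Of 48 listed lymphocyte genes 33 had an ID and 18 were tested, 0 passed, and 9 were negative and 9 positive, with a median of -0.027. Over all tested genes 9.01% passed and 49.3% were negative. CD2, an adhesion receptor of T and NK cells, averaged 2.14 CPM (SD 0.795) in fibre1 and 4.40 CPM (SD 3.71) in fibre2B (log2 fold change -1.02 ± 0.42, edgeR adjusted p = 0.127), the T cell adaptor gene TRAT1 had -1.30 ± 0.56 (adjusted p = 0.144) and the perforin gene PRF1 -0.75 ± 0.42 (adjusted p = 0.250). Without fibre2B pig 14, which had 9.82 CPM of CD2, CD2 had -0.26 and PRF1 -0.39. CD3D had 0.26 ± 0.45, CD5 0.13 ± 0.34 and CD8A -0.23 ± 0.42.

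The mean log2 CPM of 23 myeloid genes (7 of the 10 genes and the 16 of the list) was 0.98 ± 0.51 in fibre1 and 1.52 ± 0.54 in fibre2B (SD, n = 7 and 4), a difference of -0.54. For the 18 lymphocyte genes it was -0.11 ± 0.54 in fibre1 and 0.13 ± 0.44 in fibre2B, a difference of -0.24. The myeloid mean minus the lymphocyte mean was 0.72 to 1.29 in fibre1 (mean 1.09 ± 0.20) and 0.94, 1.64, 1.71 and 1.24 in fibre2B pigs 10, 11, 14 and 16 (mean 1.38 ± 0.36), so fibre2B pigs 11 and 14 were above every fibre1 pig and pigs 10 and 16 lay among them. The difference between the groups, -0.29 on the log2 scale, was -0.56 with medians over genes and 0.11 with summed CPM. A sum gives the most abundant genes the most weight. LGMN and FOLR2 averaged 35.1 and 29.8 CPM in fibre1, where the myeloid sum was 104 to 187 CPM. In fibre2B pig 14 CCL5 held 28.0 of the 56.6 CPM of the lymphocyte sum. Their part in the change of sign was not tested. The 23 and 18 genes were chosen with results of these pigs known, so no test was made. The myeloid and lymphocyte means varied together over the pigs (r = 0.86, rho = 0.69, n = 11). The value was 0.75 without fibre1 pig 6 and fibre2B pig 14, 0.64 without fibre1 pigs 5 and 6, and 0.93 within the 7 fibre1 pigs; the 4 fibre2B pigs are too few for a value of their own. The lymphocyte mean had an r of -0.80 with the count share of the top 10 genes and the mean of the 10 leukocyte genes -0.69, but without pigs 5 and 6 these were -0.21 and 0.11.

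**Figure D5:**
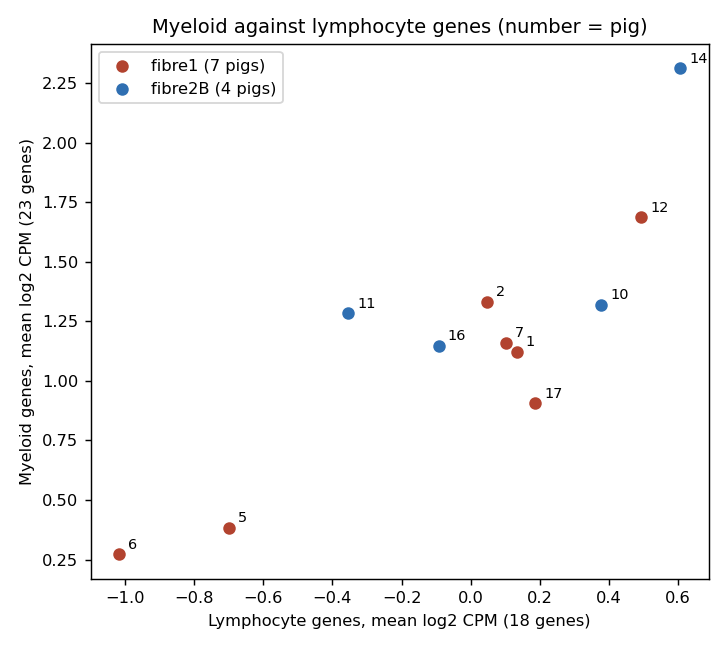
Mean log2 CPM of 23 myeloid genes (y axis) against that of 18 lymphocyte genes (x axis) in the 7 fibre1 pigs (red) and 4 fibre2B pigs (blue), each labelled with its number. Fibre1 pigs 5 and 6 are at the lower left and fibre2B pig 14 at the upper right, and fibre2B pig 11 has the lowest lymphocyte mean among the fibre2B pigs.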

How the data were processed

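The authors deposited, for each gene and pig, an expected count (an estimate of reads, without decimals and not normalized). Each column was matched to a pig by the number in the title. There were 0 columns of other samples. The submitters' processing notes name CASAVA 1.8.2, FastQC, STAR, RSEM, edgeR, DESeq2 and the build Sscrofa10.2, with no role or order. Whether reads were counted by strand is not given in the sources used here. The isoform table was not used. A reference list of gene IDs gave a symbol for 11804 of the 25322 genes.

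Counts were rounded, which changed nothing, and fitted for all genes with edgeR 4.0.16 in R 4.3.3 (filterByExpr, TMM factors, quasi-likelihood F test on a group term, Benjamini-Hochberg adjusted p of 0.05 over 11329 genes). SEs were derived from each log2 fold change and its F statistic (ratio of the absolute change to the root of F). Log2 CPM used a prior count of 2. Alternatives were DESeq2 1.42.0, limma-voom (limma 3.58.1), other factors and filters, a covariate, and leaving out pigs. The pipeline was also run on counts simulated with the dispersions fitted here. That simulation set no pig apart from its group, so it cannot show how calls depend on single pigs. Each pig is its own sample, and p-values measure the spread between pigs.

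The 10 genes, the lists and the rule for named genes were chosen with earlier results of these data known. The rule took the 10 genes, and from each list the genes called and the 3 with the smallest p, and the genes most correlated with the 10. Markers of cells other than leukocytes are given as counts. Some listed genes are not reported here. Genes named for narrow ranges, T cell identity or granulocyte markers were picked from the lists after their values were seen.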

Additional observations from a re-analysis of the deposited data

Results flagged for a closer look

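In groups of 4 or 7 pigs, a pig whose gap to its nearest neighbour took up most of the group's range was marked by Dixon's criterion. Of 88 sets (43 genes and the myeloid minus lymphocyte value, each in both groups) 13 were marked. By chance the criterion marks about 1 in 20 sets of independent, normally distributed values. These sets are mostly CPM of correlated genes in the same pigs, so that rate cannot be set against the 13. Fibre1 pig 2 had 6.999 CPM of CD14 (next pig 3.53), fibre1 pig 12 had 3.81 CPM of LYZ (next 1.33) and 4.25 CPM of LAPTM5 (next 1.71), and fibre1 pig 17 had 4.71 CPM of CD4 (next 1.65) and 1.03 CPM of LTF, the lactoferrin gene (next 0.413). Fibre2B pig 14 had 6.30 CPM of CD68 (next 2.12), 11.5 CPM of FCER1G (next 5.55), 3.86 CPM of MSR1 (next 0.867), 5.79 CPM of FCGR1A (next 0.625), 13.1 CPM of LAT2 (next 5.76) and 44.1 CPM of the MHC class II gene SLA-DQB1 (next 29.3). Outside the leukocyte genes, fibre1 pig 7 had 60.9 CPM of LUM (next 38.3) and 1.29 CPM of RBP4 (next 0.520). What sets these pigs apart was not tested.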

How the results depend on the processing

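None of the 10 genes was called in any of the 20 alternatives, and 190 of 200 log2 fold changes of single genes kept their direction. The exceptions were CD14, at -0.0149 with upper-quartile factors, -0.000507 with at least 1 CPM in at least 4 pigs, -0.00307 with DESeq2, -0.099 with limma-voom, and between -0.417 (without fibre1 pig 2) and 0.228 when 1 pig was left out, with -0.0683 without fibre1 pig 12, -0.096 without fibre2B pig 10 and -0.183 without fibre2B pig 16; and CD4, at -0.0131 with limma-voom and between -0.332 (without fibre1 pig 17) and 0.464 with 1 pig left out. With 1 pig left out FCGR1A ran from -2.59 to 0.104 (without fibre2B pig 14), and GATA2 (-0.062 with all pigs) from -0.139 to 0.051 (without fibre2B pig 11), with 0.0106 without fibre1 pig 2. FCGR1A passed with DESeq2 (0.034) and without fibre2B pig 11 (0.045). FCGR1A failed the filter without fibre1 pig 7 or 12, and it, LTF, MSR1, PRF1, RBP4, TLR2 and TRAT1 had no value under the filter of 1 CPM. The number of genes called over the whole table was 1021, 1706 with DESeq2, 463 with the covariate and 28 without fibre1 pigs 5 and 6; it ran from 0 (without fibre2B pig 14, 2436 at an unadjusted p under 0.05) to 1548 (without fibre1 pig 12). Leaving out fibre1 pig 1 gave 459, pig 2 316, pig 5 454 and pig 6 478 genes, and leaving out fibre2B pig 10 gave 325 and pig 16 300. The myeloid minus lymphocyte difference was -0.563 with medians and 0.109 with summed CPM, and between -0.439 and -0.184 with 1 pig left out. The cause of these changes was not tested. No paired analysis was possible because the groups share no pig number. Counts of 4 to 1180 per pig limit what could be seen for the 10 genes.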

Other observations

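Signals that draw or instruct leukocytes were listed as well. Of 8 tested chemokine and cytokine genes 1 passed, where 9.01% of all tested genes did. That gene, CXCL14, a chemokine made by many tissues, fell to 13.9 ± 2.96 CPM in fibre1, against 27.9 ± 9.23 CPM in fibre2B, without overlap. Its log2 fold change was -1.01 ± 0.21 (edgeR adjusted p = 0.019). Its call was lost without fibre2B pig 14 (adjusted p = 0.079) or fibre1 pigs 5 and 6 (0.061). TGFB1 averaged 9.51 CPM (SD 1.59) in fibre1 and 6.62 CPM (SD 0.812) in fibre2B (0.52 ± 0.16, adjusted p = 0.057, and 0.022 with DESeq2), and IL33, an alarm cytokine of stromal cells, had -0.86 ± 0.35 (adjusted p = 0.125, and 0.031 without fibre1 pig 12). CCL2, the chemokine of monocytes, was highest in fibre1 pig 2 (11.4 CPM, against at most 6.34 CPM in any other pig), the pig with the highest CD14. IL18 had 12.5 CPM in fibre1 pig 12 and at most 5.05 CPM in any other pig. CCL2 and IL18 were named after their values were seen.

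Of 5 tested dendritic cell and MHC class II genes 0 passed and 4 were negative (median -0.29): SLA-DMB had -0.73 ± 0.26 (edgeR adjusted p = 0.090), SLA-DQB1, whose near-identical relatives make its counts uncertain, -0.44 ± 0.23 (0.220) and the activation marker CD83 0.70 ± 0.43 (0.301). Without fibre2B pig 14 SLA-DMB had -0.38 and SLA-DQB1 -0.25. Of 3 tested granulocyte and mast cell genes 0 passed, with LTF at -0.73 ± 0.47 (adjusted p = 0.319), the mast cell receptor gene KIT at 0.39 ± 0.27 (0.359) and GATA2 at -0.062 ± 0.22 (0.878). Of 8 endothelial markers 0 passed (median 0.19) and of 5 muscle fibre genes 0 passed (median 0.64). Of 9 smooth muscle and pericyte, 5 adipocyte and 4 satellite cell markers 1 each was called lower in fibre1 (medians 0.34, 0.14 and -0.64). Over all tested genes 9.01% were called, 4.63% were called lower in fibre1 and 49.3% were negative.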
